A study of Mus musculus with 8 samples.

Results

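Matrix metalloproteinases (MMPs) and their tissue inhibitors (TIMPs) were followed in cells isolated from the injured mouse liver. The 10 genes Mmp2, Mmp8, Mmp9, Mmp12, Mmp13, Mmp14, Mmp19, Timp1, Timp2 and Timp3 were chosen by name from the 21968 gene symbols of the series. All 10 were among the 14404 genes that passed the filter on low counts. The mice carried an Lgr5-LacZ transgene on a mixed C57BL/6 and CBA background and had received carbon tetrachloride (CCl4), a toxin of centrilobular hepatocytes, once by the intraperitoneal route at 1 µl per g in rapeseed oil. Livers were taken 6 days later, and no uninjured group is part of the comparisons. Sample labels put the mice at 10 to 12 weeks of age and the series text at 7 to 12 weeks. Bulk RNA sequencing covered F4/80high cells that were b-gal+, F4/80high cells that were b-gal-, EpCAM-positive cells, which the series text names cholangiocytes, and hepatocytes. A fluorogenic β-galactosidase substrate split the first 2 groups, F4/80 is a macrophage surface antigen, EpCAM was stained with an antibody, and the hepatocytes were pelleted by slow centrifugation. There are 2 libraries a group, each of cells pooled from 2 mice; below, a gate is a sorted group and a library number is the replicate number of the labels. The labels do not say whether libraries of different groups came from the same mice, so p-values measure the spread between these libraries.

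MMPs are zinc-dependent endopeptidases that are made as inactive zymogens and cut collagens, elastin, basement membrane and many surface proteins. TIMPs bind and block their active sites, and TIMP2 also helps MMP14 to activate proMMP2 at the cell surface. In the liver, macrophages, stellate cells, endothelium and infiltrating leukocytes are known sources, and the balance of both families governs how scar matrix is laid down and removed after injury.

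Mmp8, Mmp12 and Mmp13 lie in the MMP gene cluster on chromosome 9, and Mmp14 lies alone on chromosome 14. RefSeq promoter windows (GRCm38.p6, 250 bases before to 50 bases after a start) matched 7 of the 10 genes; Mmp2, Mmp9 and Mmp19 had none. The AP-1 motif TGANTCA, searched on both strands, was found in 2 of the 7, Mmp12 and Mmp13, and stands in 7.81% of the 32851 windows of that length. The 7 genes had 8 windows, and that of the first RefSeq start of Mmp12 held 0 AP-1 matches. The GC box GGGCGG, also on both strands, was found in 4 of the 7, Mmp14, Timp1, Timp2 and Timp3, and in 35.7% of all windows. The windows of Mmp12, Mmp13 and Mmp14 are shown because the b-gal+ cells held the highest levels of the first 2 genes and the lowest of the third. Each is the 120 bases that end just before a RefSeq start, on the plus strand, with no annotated exon of its gene inside. Capitals mark AP-1 matches in Mmp12 and Mmp13 and 2 adjoining GC box matches in Mmp14. The positions are chr9:7347254-7347373 for Mmp12, whose window belongs to the second of its RefSeq starts, chr9:7272394-7272513 for Mmp13 and chr14:54431478-54431597 for Mmp14.
Mmp12: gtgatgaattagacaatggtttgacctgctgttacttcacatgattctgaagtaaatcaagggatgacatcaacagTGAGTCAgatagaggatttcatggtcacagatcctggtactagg
Mmp13: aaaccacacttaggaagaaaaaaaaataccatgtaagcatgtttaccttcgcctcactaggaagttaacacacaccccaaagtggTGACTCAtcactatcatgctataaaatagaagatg
Mmp14: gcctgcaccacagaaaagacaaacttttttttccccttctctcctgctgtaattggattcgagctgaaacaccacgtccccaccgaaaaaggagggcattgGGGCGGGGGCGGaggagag
A match is a description of letters and was not tied to the levels by any test.

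The libraries held 16948568 to 24549242 reads in named genes, and 3 reads corresponded to 0.0912 to 0.239 CPM. Levels are counts per 1000000 reads after scaling with TMM factors (CPM), differences are log2 of CPM + 0.5 from limma with Benjamini-Hochberg adjustment over all tested genes, and adjusted p under 0.05 is a call. The sorted groups carried RNA of more than one cell type. Summed over 12 Kupffer cell markers, the level was 41402 and 38290 CPM in the b-gal+ gate, 4177 and 2764 in the b-gal- gate, 1392 and 278 in the EpCAM-positive gate, and 411 and 292 in hepatocytes. Summed over 14 sinusoidal endothelial markers it was 4690 and 3532 for b-gal+, 25002 and 29750 for b-gal-, 10880 and 9324 in the EpCAM-positive gate, and 583 and 1322 in hepatocytes. The 12 cholangiocyte markers summed to 2153 and 7170 CPM in the EpCAM-positive gate, 659 and 56.6 for b-gal+, 1268 and 88.1 for b-gal-, and 206 and 125 in hepatocytes, most of it Spp1 (1837 and 5686 CPM in the EpCAM-positive gate, 1263 in b-gal- library 1). Without Spp1, set aside after its values were seen, the sum was 315 and 1484 CPM in the EpCAM-positive gate, 3.14 to 9.49 in the F4/80high gates, and 92.7 and 115 in hepatocytes. EpCAM-positive cells also held 7 B and plasma cell markers at 4302 and 1660. No marker of the Kupffer and endothelial lists was at 0 reads in any library.

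Between the F4/80high gates, b-gal+ cells held less Mmp14 and Timp3 than b-gal- cells, and these were the 2 calls among the 10 genes. Over all genes 23.3% were called in this comparison, 10.4% higher and 13.0% lower in the b-gal+ gate, so that 2 of 10 is near the background. Of all calls, 44.4% were higher in the b-gal+ gate, and 32.5% under the deposited scaling or 34.1% on total reads without TMM factors, while the 2 calls among the 10 genes were lower under each. The median log2 difference, b-gal+ minus b-gal-, was -0.29 over the 10 genes and -0.02 over all tested genes, and the median size of the difference was 1.37 against 0.45. Without a call, Mmp12, Mmp13 and Mmp19 stood higher in both b-gal+ libraries than in both b-gal- libraries, and Timp2 stood lower. The share of all genes whose libraries lay apart in this way is not given here.

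**Figure D1:**
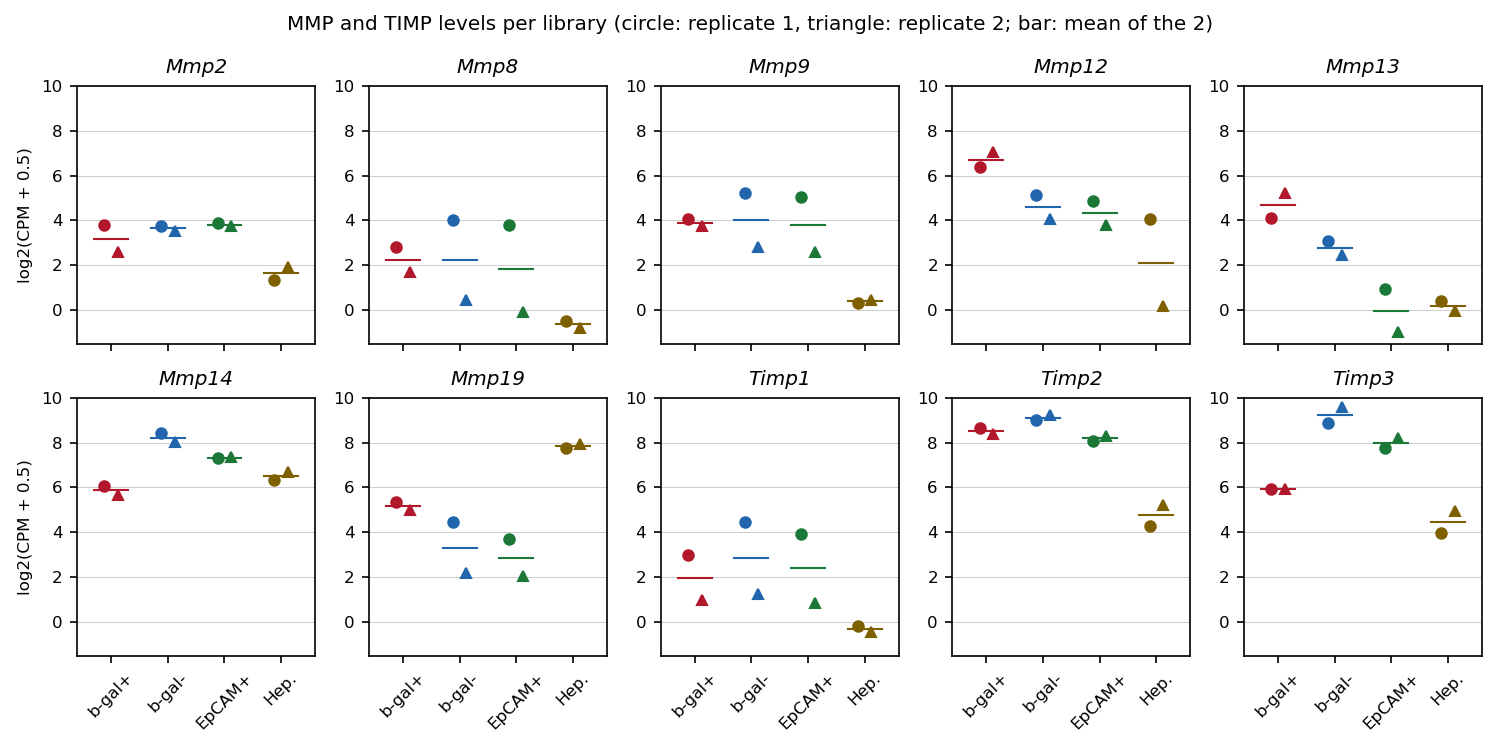
Level of each gene in each library as log2(CPM + 0.5), with circles for replicate 1, triangles for replicate 2 and a bar at the mean of the 2, for b-gal+ F4/80high, b-gal- F4/80high, EpCAM-positive cells (EpCAM+) and hepatocytes (Hep.). Mmp12 and Mmp13 are highest in the b-gal+ libraries, Mmp14, Timp2 and Timp3 in the b-gal- libraries and Mmp19 in the hepatocyte libraries, while replicates of Mmp8, Mmp9 and Timp1 lie far apart.

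Mmp12 (chromosome 9, 7344381 to 7369499, GRCm38), the macrophage elastase, had 81.8 and 134 CPM for b-gal+ libraries 1 and 2 and 34.2 and 16.1 CPM for b-gal- libraries 1 and 2. EpCAM-positive cells had 28.9 and 13.4 CPM, and hepatocytes had 16.0 and 0.639 CPM. Both b-gal+ libraries lay above the other 6, while the b-gal-, EpCAM-positive and hepatocyte libraries overlapped between neighbours in that order of means. The difference between the F4/80high gates was 2.13 (SE 1.15, 95% interval -0.60 to 4.86, adjusted p = 0.244). It passed with adjusted p = 0.0488 without hepatocyte library 1, 0.0491 without hepatocyte library 2 and 0.0244 in a fit of these 2 groups alone. The hepatocyte libraries are 25.1-fold apart and enter the shared estimate of the spread. Against hepatocytes Mmp12 was higher in the b-gal+ gate by 4.60 (adjusted p = 0.0117), a call that was lost without b-gal+ library 2 (0.0649). Mmp12 differed by 2.38 between the b-gal+ and EpCAM-positive gates (adjusted p = 0.161), which passed without hepatocyte library 1 (0.0298) or 2 (0.0299) and in a fit of these 2 groups alone (0.0312). Between the b-gal- gate and hepatocytes it differed by 2.47 (0.0998), which passed without hepatocyte library 1 (4.41, 0.00421), under the deposited scaling (0.0207) and on total reads without TMM (0.0226).

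Mmp12 did not scale with the Kupffer cell markers from group to group. Per 1000 CPM of the summed Kupffer list, Mmp12 had 1.98 and 3.50 CPM for b-gal+, 8.18 and 5.84 for b-gal-, 20.8 and 48.2 in the EpCAM-positive gate, and 39.0 and 2.19 in hepatocytes. Relative to these markers, the b-gal+ libraries were therefore below the b-gal- and EpCAM-positive ones, the reverse of their order in CPM. Per 1000 CPM of the same list, Mmp13 had 0.409 and 0.955 CPM for b-gal+ and 1.89 and 1.79 for b-gal-, also the reverse of their order in CPM. It had 1.00 and 0 in the EpCAM-positive gate, from 46 and 0 reads, and 1.97 and 1.64 in hepatocytes, from only 11 and 6 reads. Whether other cells of the gates contributed Mmp12 or Mmp13 reads was not tested.

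Mmp13 (chromosome 9, 7272514 to 7283331), the main interstitial collagenase of rodents, had 17.0 and 36.6 CPM in the b-gal+ gate and 7.91 and 4.94 CPM in the b-gal- gate. In the EpCAM-positive gate it had 1.40 and 0 CPM, and in hepatocytes 0.812 and 0.479 CPM. The exact 95% interval of the 0 reads reaches 0.138 CPM. The b-gal+ libraries were above all others and the b-gal- libraries above those of EpCAM-positive cells and hepatocytes, which overlapped each other. The difference of 1.91 between the F4/80high gates (SE 0.68, 95% interval 0.29 to 3.53) had adjusted p = 0.0914. It passed with a pseudocount of 2 (0.0292), in a fit of these 2 groups alone (0.0329) and without the EpCAM-positive group (0.0171). It also passed, at 1.91, without EpCAM-positive library 1 or EpCAM-positive library 2, the latter being the library with 0 reads. Mmp13 rose by 4.71 for b-gal+ over EpCAM-positive cells (adjusted p = 0.00368) and by 4.49 over hepatocytes (0.00119), and both calls held in each alternative that was run. In the b-gal- gate it rose by 2.58 over hepatocytes (0.0138), a call lost without b-gal- library 1 (0.0738), hepatocyte library 1 (0.0591) or hepatocyte library 2 (0.0934), and with edgeR (0.0612).

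Mmp14 (chromosome 14, 54431612 to 54445364) encodes the membrane-bound MT1-MMP, a pericellular collagenase and the activator of proMMP2. It had 66.9 and 50.7 CPM in the b-gal+ gate, 340 and 264 in the b-gal- gate, 160 and 163 in the EpCAM-positive gate, and 81.1 and 103 in hepatocytes. No 2 groups overlapped, and the b-gal+ libraries were the lowest. Mmp14 fell by 2.35 for b-gal+ against b-gal- cells (SE 0.21, 5.11-fold, adjusted p = 0.00103) and fell by 1.46 against EpCAM-positive cells (2.75-fold, 0.00364). Both calls held in each alternative. Against hepatocytes the fall of 0.65 (adjusted p = 0.0331) was lost without b-gal+ library 2 (0.164) or hepatocyte library 2 (0.142). It turned to a gain of 0.39 (0.178) under the deposited scaling and of 0.33 (0.175) on total reads without TMM factors. In the b-gal- gate Mmp14 rose by 1.71 over hepatocytes (adjusted p = 0.000420), which held in each alternative. EpCAM-positive cells exceeded hepatocytes by 0.81 (0.0133), a call lost without hepatocyte library 1 (0.102).

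Mmp2 (chromosome 8, 92827291 to 92853420), gelatinase A and the substrate of MMP14, was low throughout. Its levels were 13.6 and 5.43 CPM for b-gal+, 12.9 and 11.2 for b-gal-, 14.1 and 12.8 in the EpCAM-positive gate and 2.07 and 3.27 in hepatocytes. The 3 non-hepatocyte groups overlapped, and all 6 of their libraries were above both hepatocyte libraries. The difference between the F4/80high gates was -0.46 (adjusted p = 0.516). Mmp2 exceeded hepatocytes by 1.55 for b-gal+ (0.0183), 2.01 for b-gal- (0.00576) and 2.16 in the EpCAM-positive gate (0.00438). The first call was lost without b-gal+ library 1 (0.0951) or hepatocyte library 1 (0.117), the second without hepatocyte library 1 (0.0509). Markers of stellate cells and fibroblasts, a known source of Mmp2, summed over 14 genes to 1277 and 366 CPM for b-gal+, 1627 and 1184 for b-gal-, 1219 and 824 in the EpCAM-positive gate, and 418 and 622 in hepatocytes. Mmp2 was thus lower for b-gal+ library 2 than in replicate 1 in the same pair of libraries in which these markers were lower, and their part in it was not tested.

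**Figure D2:**
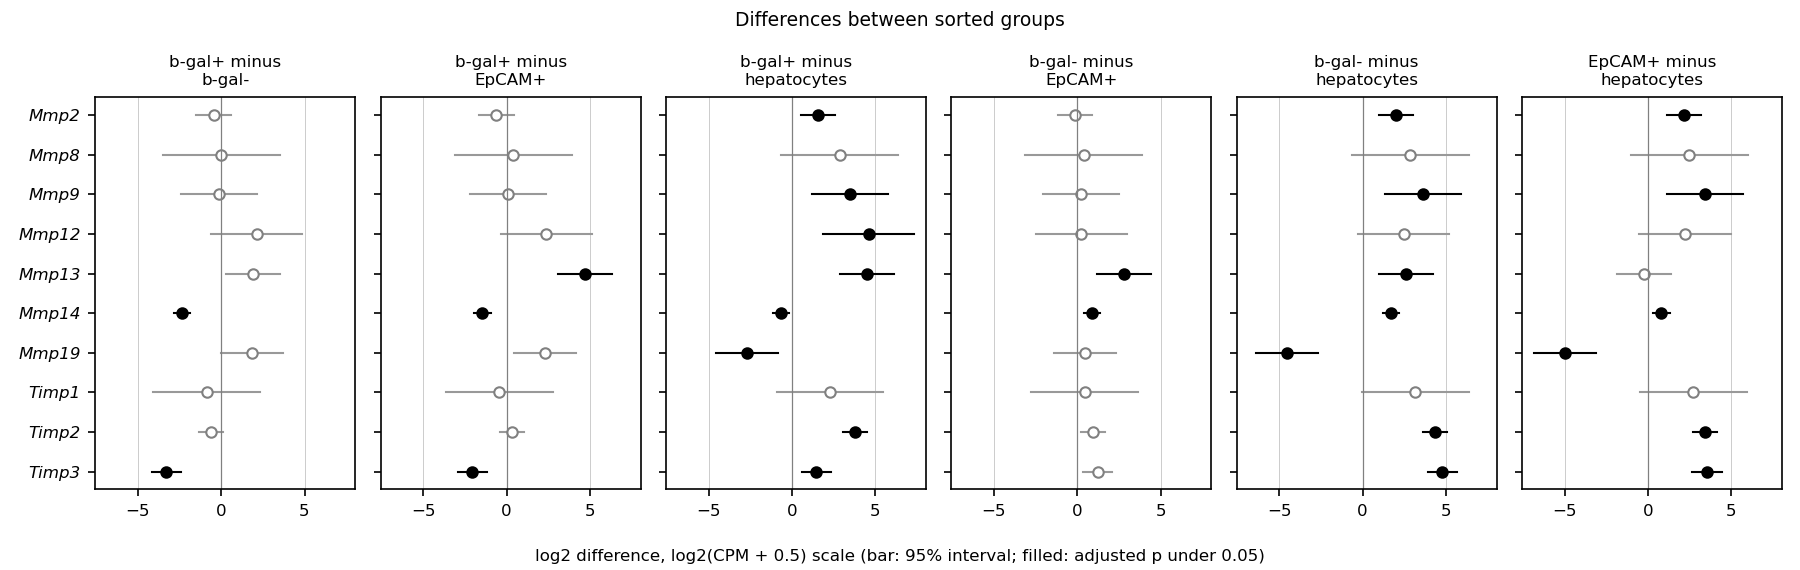
Log2 differences of the 10 genes in the 6 pairwise comparisons, on the log2(CPM + 0.5) scale; bars are 95% intervals and filled points have adjusted p under 0.05. Mmp14 (-2.35) and Timp3 (-3.30) are the filled points between the F4/80high gates, and most filled points stand in the 3 comparisons with hepatocytes.

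Mmp8 (chromosome 9, 7558456 to 7568485), the collagenase stored in neutrophil granules, differed more between replicates than between the 3 non-hepatocyte groups. It had 6.53 and 2.69 CPM for b-gal+ libraries 1 and 2, 15.7 and 0.881 for b-gal-, and 13.2 and 0.449 in the EpCAM-positive gate. Hepatocytes had 0.222 and 0.0798 CPM, which are 3 and 1 reads, so no fold is given against them. All 6 other libraries lay above these 2, without a call (adjusted p 0.129 to 0.183), while DESeq2 called each of the 3 comparisons (0.00134 to 0.00601). Between b-gal+ and b-gal- cells the difference was 0.00 (95% interval -3.51 to 3.51), and its sign depends on the library left out.

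Mmp9 (chromosome 2, 164940780 to 164955850), gelatinase B of neutrophils and macrophages, had 16.0 and 12.8 CPM for b-gal+, 36.9 and 6.51 for b-gal-, 32.2 and 5.50 in the EpCAM-positive gate and 0.738 and 0.878 in hepatocytes. The 3 non-hepatocyte groups overlapped, and the difference between the F4/80high gates was -0.13 (95% interval -2.41 to 2.16, adjusted p = 0.951). Mmp9 exceeded hepatocytes by 3.51 for b-gal+ (0.0172), 3.63 for b-gal- (0.0140) and 3.42 in the EpCAM-positive gate (0.0183). The b-gal+ call was lost without any 1 of the 4 libraries compared (adjusted p 0.0602 to 0.0888). The b-gal- call was lost without b-gal- library 1 (0.0753) or either hepatocyte library (0.0787 and 0.0687), and the EpCAM-positive call without EpCAM-positive library 1 (0.0947) or either hepatocyte library (0.0931 and 0.0807).

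Timp1 (chromosome X, 20870166 to 20874735), the inducible inhibitor, differed between libraries of 1 group. It had 7.38 and 1.45 CPM for b-gal+, 21.4 and 1.86 for b-gal-, 14.7 and 1.31 in the EpCAM-positive gate, and 0.369 and 0.239 CPM, or 5 and 3 reads, in hepatocytes. The 6 other libraries lay above both hepatocyte libraries, with adjusted p of 0.187 for b-gal+, 0.0778 for b-gal- and 0.120 in the EpCAM-positive gate. DESeq2 called all 3 (0.000660 to 0.0129), and the b-gal- comparison also passed with edgeR (0.0425). Replicate 1 was 5.10-fold, 11.5-fold and 11.3-fold above replicate 2 in the first 3 groups. Its difference between the F4/80high gates was -0.88 (95% interval -4.08 to 2.33, adjusted p = 0.707) and changed sign without b-gal+ library 2 (0.17) or b-gal- library 1 (0.73).

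Markers of neutrophils and of monocyte-derived macrophages differed between the same replicates. Without Lcn2, which hepatocytes also express and which was set aside after its values were seen, 10 neutrophil markers summed to 219 and 151 CPM for b-gal+, 422 and 38.0 for b-gal-, 418 and 27.4 in the EpCAM-positive gate, and 9.60 and 2.63 in hepatocytes. Of these 10 genes, 9 in the b-gal+ gate and 10 in each of b-gal- and EpCAM-positive cells were higher in replicate 1. Csf3r, which neutrophils share with other myeloid cells, ran against the rest for b-gal+, with 101 and 143 CPM. Without Lcn2 and Csf3r, the latter also set aside after its values were seen, 9 genes summed to 118 and 8.41 CPM for b-gal+, 359 and 17.5 for b-gal-, 388 and 15.7 in the EpCAM-positive gate, and 8.27 and 1.60 in hepatocytes. With Lcn2 the 11 genes summed to 228 and 151, 442 and 38.8, 462 and 51.8, and 1028 and 61.8 CPM in the 4 groups. Elane was at 0 reads in EpCAM-positive library 2, and Camp, Ngp, Ltf and Mpo were at 0 in hepatocyte library 2. The 10 monocyte-derived macrophage markers summed to 7860 and 6270 CPM for b-gal+, 11769 and 1767 for b-gal-, 6150 and 1379 in the EpCAM-positive gate, and 6192 and 5891 in hepatocytes. Fn1, which hepatocytes also express, made up most of the sum in b-gal- library 1 (8115 CPM), EpCAM-positive library 1 (4255 CPM) and hepatocytes (6085 and 5845 CPM), among others. Without Fn1, set aside after its values were seen, 9 genes summed to 4843 and 5941 CPM for b-gal+, 3654 and 794 for b-gal-, 1895 and 350 in the EpCAM-positive gate, and 107 and 46.5 in hepatocytes. The levels of Mmp8, Mmp9 and Timp1 moved with these marker levels for b-gal- and EpCAM-positive cells, and the part of such cells in them was not tested. Gaps between replicates were not particular to these lists. Of 22 matrix genes, 20, 20 and 18 were higher in replicate 1 for b-gal+, b-gal- and EpCAM-positive cells. Of 14 stellate cell markers it was 13, 11 and 12, and of 12 Kupffer cell markers 7, 9 and 12. Of 14 endothelial markers it was 14, 2 and 11, and of 12 hepatocyte markers 0 in each.

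**Figure D3:**
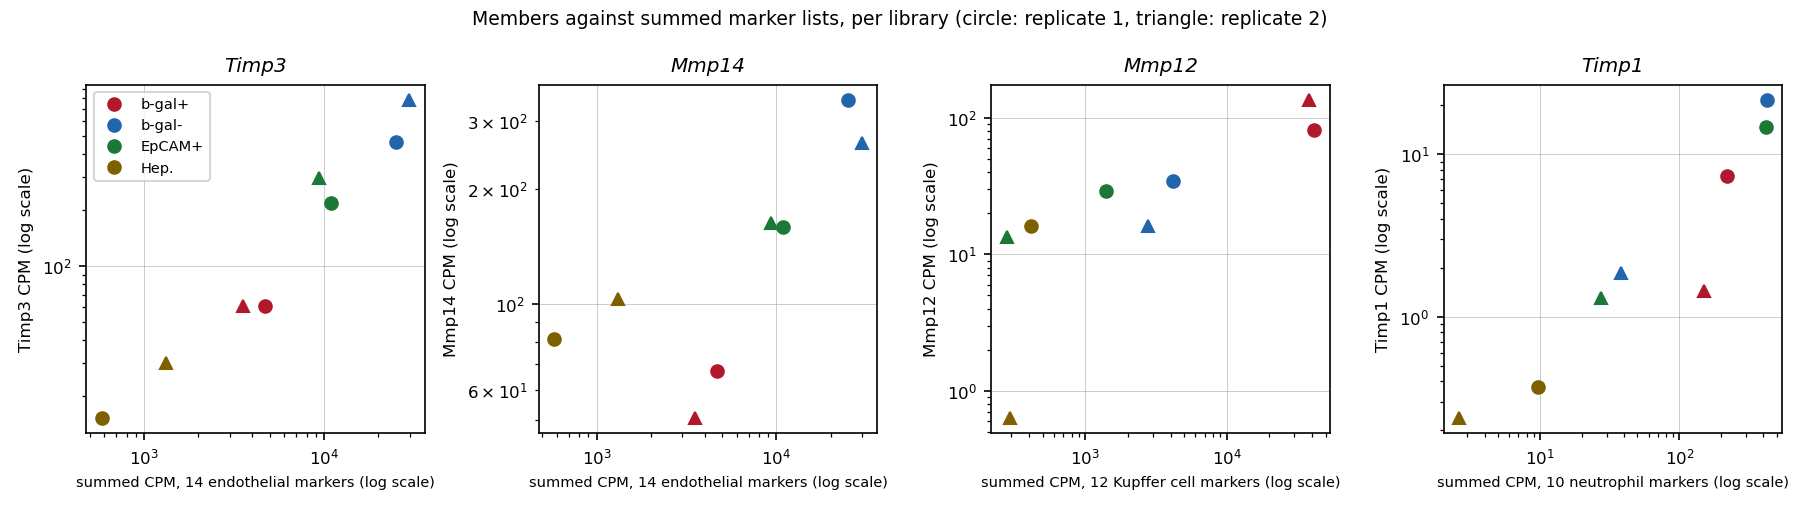
Timp3 and Mmp14 against summed sinusoidal endothelial markers, Mmp12 against summed Kupffer cell markers and Timp1 against summed neutrophil markers without Lcn2, 1 point per library, all axes logarithmic (circles for replicate 1, triangles for replicate 2). Timp3 is ordered by group along the endothelial axis, Mmp14 of hepatocytes departs from it, and Timp1 of replicate 1 sits above replicate 2 in each group.

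Mmp19 (chromosome 10, 128790910 to 128800824), a secreted basement membrane protease, stood highest in the hepatocyte libraries. It had 215 and 247 CPM in hepatocytes, 40.0 and 31.4 for b-gal+, 21.3 and 4.01 for b-gal-, and 12.5 and 3.59 in the EpCAM-positive gate. Hepatocytes lay above all other libraries and b-gal+ cells above b-gal- cells, while b-gal- and EpCAM-positive cells overlapped. Mmp19 fell by 4.54 in the b-gal- gate (adjusted p = 0.00205) and fell by 4.98 in the EpCAM-positive gate (0.00147) against hepatocytes, and both calls held in each alternative. In the b-gal+ gate it fell by 2.68 (0.0221), a call lost without any 1 of the 4 libraries compared (0.0680 to 0.106) and under the deposited scaling (0.111) or total reads without TMM (0.0891). The difference of 1.86 between the F4/80high gates had adjusted p = 0.143, and 2.99 with adjusted p = 0.0312 without b-gal- library 1. Against EpCAM-positive cells b-gal+ cells were higher by 2.30 (0.0638), which passed without b-gal- library 1 (0.0238) or 2 (0.0235) or EpCAM-positive library 1 (0.0380), and with DESeq2 (0.0191). Tmem198b overlaps Mmp19 on the opposite strand, and strand use in the counting is not given, so that its reads and those of Mmp19 cannot be told apart where they overlap. Tmem198b itself had 36 and 72 reads in hepatocytes, its lowest values.

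Timp2 (chromosome 11, 118301069 to 118355740, minus strand), the constitutive inhibitor, was abundant in all sorted non-hepatocyte groups. It had 401 and 339 CPM for b-gal+, 513 and 601 for b-gal-, 268 and 319 in the EpCAM-positive gate, and 19.2 and 36.6 in hepatocytes. No groups overlapped. The difference between the F4/80high gates was -0.59 (SE 0.30, 95% interval -1.31 to 0.13, adjusted p = 0.219), and that between the b-gal+ and EpCAM-positive gates was 0.33 (0.451), which turned to -0.10 on total reads without TMM. Between the b-gal- and EpCAM-positive gates it was 0.92 (0.0940). Against hepatocytes Timp2 rose by 3.77 for b-gal+ (13.7-fold, adjusted p = 6.35e-05), by 4.36 for b-gal- (20.5-fold, 3.29e-05) and by 3.44 in the EpCAM-positive gate (10.8-fold, 0.000113). These 3 calls held in each alternative.

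Timp3 (chromosome 10, 86300372 to 86349506), the inhibitor that stays bound to the extracellular matrix and also blocks ADAM17, had the largest difference of the 10 genes between the F4/80high gates. It had 60.7 and 60.6 CPM in the b-gal+ gate and 466 and 780 in the b-gal- gate. EpCAM-positive cells had 219 and 297 CPM, hepatocytes 15.3 and 30.1, and no groups overlapped. Timp3 fell by 3.30 for b-gal+ against b-gal- cells (SE 0.37, 95% interval -4.18 to -2.43, 9.87-fold, adjusted p = 0.00171) and fell by 2.06 against EpCAM-positive cells (4.18-fold, 0.00700), and both calls held in each alternative. It rose over hepatocytes by 4.78 for b-gal- (4.96e-05) and 3.54 in the EpCAM-positive gate (0.000231), again in each alternative. In the b-gal+ gate it rose by 1.48 over hepatocytes (0.0115), a call lost without b-gal+ library 1 (0.0520), b-gal+ library 2 (0.0558) or hepatocyte library 1 (0.0809). Between the b-gal- and EpCAM-positive gates the difference was 1.24 (0.0738), which passed with DESeq2 (0.0290).

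The endothelial markers stood in the same order of groups as Timp3. Per 1000 CPM of the summed endothelial list, Timp3 had 12.9 and 17.2 CPM for b-gal+, 18.6 and 26.2 for b-gal-, 20.2 and 31.8 in the EpCAM-positive gate, and 26.2 and 22.8 in hepatocytes. The level in CPM spanned 51.0-fold over the 8 libraries and this ratio 2.46-fold. For Timp2 the level spanned 31.3-fold and the ratio 4.75-fold, with the b-gal+ libraries highest at 85.4 and 96.0 CPM per 1000. Mmp14 had 8.88 to 17.5 CPM per 1000 in the 6 non-hepatocyte libraries but 139 and 78.2 in hepatocytes. In these bulk libraries, fewer cells of a type and less RNA per cell cannot be told apart, and the part of endothelial cells in these differences was not tested. Syn3 hosts Timp3 on the opposite strand and had 54 to 343 reads. Syn1 overlaps Timp1 and had 814 and 997 reads in the b-gal+ gate against 7 to 94 in the other libraries.

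The comparisons with hepatocytes gave the most calls. Hepatocytes were pelleted and the other groups sorted, so cell type and way of isolation cannot be told apart in these comparisons. Against hepatocytes, 8 of 10 genes were called in the b-gal+ gate, 6 higher and 2 lower, where 59.2% of all genes were called, 29.5% higher and 29.6% lower. In the b-gal- gate 7 were called, 6 higher and 1 lower (63.2% of all genes, 33.5% higher and 29.7% lower), and in the EpCAM-positive gate 6, of which 5 higher and 1 lower (62.5%, with 33.5% higher and 29.1% lower). The median difference of the 10 genes was 2.58, 2.72 and 2.35 in the 3 comparisons, against 0.10, 0.17 and 0.15 over all genes. These counts depend on scaling, because the deposited scaling raised the median of all genes by 0.77, 0.96 and 1.17 and total reads without TMM by 0.73, 0.90 and 1.22. Of all calls 49.9%, 53.0% and 53.5% were higher than in hepatocytes, and 76.7%, 79.7% and 84.9% under the deposited scaling. Under that scaling the calls among the 10 genes were 6 higher and 0 lower for b-gal+, 8 and 1 for b-gal-, and 6 and 1 in the EpCAM-positive gate. Of the 8 calls in the b-gal+ gate, 3 to 5 were left when a b-gal+ or hepatocyte library was left out, 3 of them without b-gal+ library 2.

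Between the EpCAM-positive and the F4/80high gates fewer of the genes were called. Against EpCAM-positive cells, 3 of 10 were called in the b-gal+ gate, Mmp13 higher and Mmp14 and Timp3 lower, where 32.5% of all genes were called, 14.7% higher and 17.9% lower. In the b-gal- gate Mmp13 (2.80, adjusted p = 0.0442) and Mmp14 (0.89, 0.0410) were higher, 2 of 10 where 12.2% of all genes were called, 5.63% higher and 6.57% lower. These 2 calls were lost in most alternatives: without b-gal- library 1 the adjusted p was 0.184 for Mmp13 and 0.188 for Mmp14, and each library left out ended at least 1 of them. Of all calls 45.1% were higher in the b-gal+ gate and 46.2% in the b-gal- gate than in the EpCAM-positive gate, against 25.6% and 25.5% under the deposited scaling.

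Levels were summed per kilobase of annotated exon, which sets genes on 1 scale. RNA of the 3 TIMPs exceeded that of the 7 chosen MMPs in the sorted non-hepatocyte libraries and was far below it in hepatocytes. The MMP sum leaves out other MMPs, among them Mmp27, at 59.6 and 50.0 CPM for b-gal+. It also leaves out Mmp15, at 29.8 and 140 CPM in the EpCAM-positive gate and 91.5 and 108 in hepatocytes. The 3 TIMPs together were 2.31 and 1.72 times the 7 MMPs for b-gal+, 2.33 and 4.58 times for b-gal-, 2.10 and 3.35 times in the EpCAM-positive gate, and 0.0927 and 0.150 times in hepatocytes. The hepatocyte ratios lay below all others, and the ratios of the other 3 groups overlapped. The MMP sums themselves were 51.4 and 55.9 CPM per kb for b-gal+, 91.5 and 55.1 for b-gal-, 53.6 and 35.7 in the EpCAM-positive gate, and 77.9 and 88.9 in hepatocytes, so the TIMP sum of 7.22 and 13.4 in hepatocytes, against 96.1 to 252 elsewhere, set the ratio apart. Lengths are unions of all annotated exons, so that the level of a gene read from a shorter isoform is understated.

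The make-up of the MMP sum differed by group. Mmp14 made up 62.4% and 80.5% of it for b-gal- and 50.0% and 76.5% in the EpCAM-positive gate. In the b-gal+ gate it made up 21.8% and 15.2%, beside 22.0% and 33.1% from Mmp12, 22.0% and 15.9% from Mmp19 and 12.3% and 24.4% from Mmp13. Mmp19 made up 78.1% and 78.8% in hepatocytes. The inhibitor pool was mostly Timp2, at 86.7% and 90.6% in the b-gal+ gate and 61.2% to 70.3% in the other 6 libraries. Timp3 gave 6.28% and 7.74% of it in the b-gal+ gate and 23.9% to 38.0% elsewhere. Timp2 per kb was 9.17 and 10.2 times Mmp14 per kb in the b-gal+ gate, 2.30 and 3.48 times for b-gal-, 2.57 and 2.99 times in the EpCAM-positive gate and 0.362 and 0.542 times in hepatocytes.

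**Figure D4:**
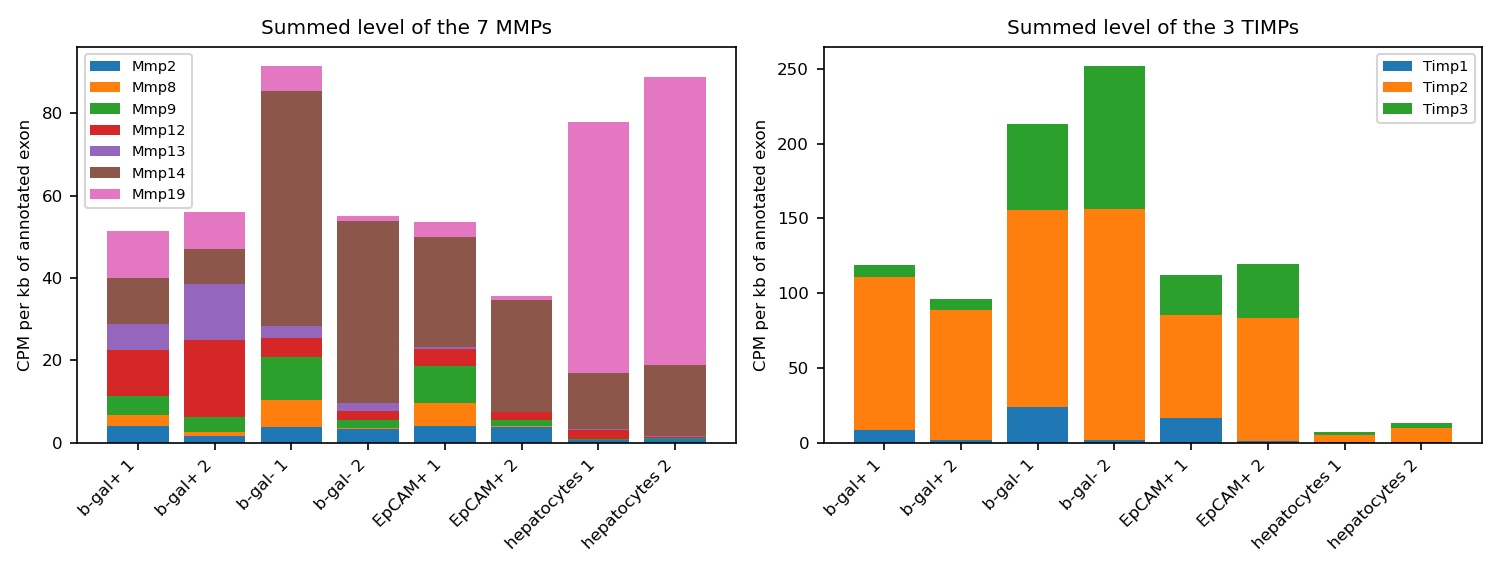
Stacked levels of the 7 MMPs (left) and the 3 TIMPs (right) in CPM per kb of annotated exon, 1 bar per library. Mmp14 fills most of the b-gal- bars and Mmp19 most of the hepatocyte bars, b-gal+ bars are split among Mmp12, Mmp13, Mmp14 and Mmp19, and the hepatocyte TIMP bars reach 7.22 and 13.4.

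Other genes of the extracellular protease system were counted between the F4/80high gates, where 10.4% of all genes were called higher and 13.0% lower in the b-gal+ gate with a median difference of -0.02. Of 16 further MMPs 8 were tested, with 1 call in each direction, and their median difference was -0.88. Mmp27 rose 16.1-fold, from 2.96 ± 0.652 CPM for b-gal- to 54.8 ± 6.74 in the b-gal+ gate (SD, n = 2, adjusted p = 0.00174). Of 22 collagens and other matrix substrates 0 rose and 8 fell, with a median of -1.46. Among them were the basement membrane genes Lama4 (11.3-fold, adjusted p = 0.00419), Hspg2 (10.6-fold, 0.00352), Nid1 (9.57-fold, 0.00431) and Col4a2 (8.98-fold, 0.00673), a laminin chain, perlecan, nidogen and a collagen IV chain. Their calls held in each alternative, and 14 of the 22 fell without b-gal+ library 1. Of the 14 endothelial markers 13 fell in the same comparison, with a median of -3.26. Of the 12 Kupffer cell markers 11 rose, with a median of 3.53. The part of either cell type in the falls and rises given here and in the lists that follow was not tested.

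Of 15 ADAM and ADAMTS proteases tested 1 rose and 5 fell, with a median of -1.34. Adam19 fell 7.45-fold (adjusted p = 0.00256) and Adamts1, which cuts proteoglycans, fell 6.59-fold (0.00337), both in each alternative. Adam12 fell 8.45-fold (0.0119) but lost the call without b-gal+ library 2 or either b-gal- library, with adjusted p up to 0.0714. Adam17, the sheddase that TIMP3 blocks, rose 2.57-fold (0.0171) and lost the call without b-gal+ library 1, b-gal+ library 2 or b-gal- library 2 (up to 0.122). The number of this list that fell ranged from 2 without b-gal+ library 2 to 8 without b-gal+ library 1.

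Among 5 other inhibitors and matrix-processing genes tested, 1 rose and 2 fell, with a median of -1.31. Pcolce2, an enhancer of procollagen C-proteinase, rose 21.5-fold to 175 ± 15.3 CPM (SD, n = 2, adjusted p = 0.00353), and Serpinh1, a collagen chaperone, fell 6.40-fold (0.00479), both in each alternative. Pcolce fell 4.31-fold (0.0361) and lost the call in 9 alternatives, with adjusted p up to 0.144. None of these 3 is an inhibitor of MMPs in itself.

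Of 10 plasminogen system genes 2 rose, with a median of 0.26. Plau, the urokinase that activates plasminogen, rose 2.84-fold (adjusted p = 0.0360) and Serpinf2, the plasmin inhibitor, rose 2.37-fold (0.0340). Both calls were lost without either b-gal+ library, b-gal- library 2 or either hepatocyte library, that of Serpinf2 also without b-gal- library 1, with adjusted p up to 0.227. Under the deposited scaling the count of 2 dropped to 0 (Plau 0.0546, Serpinf2 0.0578). Serpinf2 also lost its call with edgeR (0.0706) and on total reads without TMM (0.0629). Serpinf2 had 2938 and 2898 CPM in hepatocytes, 12.3 and 13.5 for b-gal+ and 4.76 and 5.58 for b-gal-. The 12 hepatocyte markers summed to 265 and 652 CPM for b-gal+ and 162 and 375 for b-gal-, with 0 called higher. The part of hepatocyte RNA in the Serpinf2 difference was not tested. Of 13 genes that induce, activate, bind or clear MMPs, 2 rose and 1 fell, with a median of -0.35. Itgav, the αv integrin chain, rose 3.21-fold (0.00218) and Itgb3, the β3 chain, fell 6.59-fold (0.00408), in each alternative. Lrp1, the receptor that takes up MMP and TIMP complexes, rose 5.24-fold (0.0244) and lost the call without either b-gal+ library, b-gal- library 2 or either hepatocyte library (up to 0.176).

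Of 10 cathepsins and other collagen-cutting proteases 3 rose and 1 fell, with a median of -0.29. The lysosomal proteases Ctss (6.10-fold, adjusted p = 0.0411), Ctsb (5.06-fold, 0.0250) and Ctsd (4.13-fold, 0.0303) rose, and the secreted serine protease Htra1 fell 6.67-fold (0.00423). The count of 3 dropped to 0 without either b-gal+ library, b-gal- library 2 or either hepatocyte library and with no filter on low counts. It was 1 without b-gal- library 1 and with edgeR, and 2 under the deposited scaling, with adjusted p up to 0.233, while the call of Htra1 held in each alternative.

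Profiles nearest to each gene were ranked by the root mean square difference of centred log2 levels over the 8 libraries among 12848 tested genes. Timp3 had the closest neighbours, Gja4 (0.06), Arhgef15 (0.07) and Lrrc32 (0.07). Timp2 was nearest to Adamts10 (0.18) and Mmp14 to Dock9 (0.19). Mmp8 was nearest to the chemokine gene Cxcl3 (0.30), with Timp1 as its second neighbour (0.46), and Timp1 to the neutrophil antigen gene Cd177 (0.31). Mmp2 was nearest to Fndc1 (0.25), Mmp9 to Ccdc109b (0.34), Mmp19 to the liver glycogen phosphorylase gene Pygl (0.33), Mmp13 to Apobec1 (0.50) and Mmp12 to Pvt1 (0.67). The spread of these values says how like the profiles were, and all 8 libraries are shared between genes.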

How the data were processed

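Bulk RNA was sequenced in 8 libraries of 4 cell groups. The submitters' processing notes name HTSeq and the builds GRCm38.p4 and mm10; aligner, annotation, versions, strand use and scaling are not given in the sources used here. For hepatocyte library 1 the deposited values are plain counts per gene symbol. The authors' other 7 files hold counts multiplied by 1 factor per library, and dividing by the smallest step gave whole reads for 100% of values within 0.01 reads. In each file 14 rows with a date serial in place of a symbol (0.0514% to 0.182% of reads) were left out. The recovered reads were filtered for low counts, TMM-scaled with edgeR 4.0.16 (R 4.3.3) and tested with limma 3.58.1 with a trend, two-sided, on log2(CPM + 0.5), all 8 libraries in 1 fit with 4 residual degrees of freedom. A gene's exons and position come from GENCODE M21, GRCm38; promoter windows come from RefSeq, GRCm38.p6. A floor of 3 reads covers counting error only, as no molecular identifiers mark the reads. The scripts were tested on simulated data.

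The genes and lists were chosen with earlier results of these data known. Named were all 10 genes, of each pathway list up to 4 called genes of largest difference between the F4/80high gates that averaged at least 10 CPM, and for each of the 10 genes its nearest profiles among genes of at least 1 CPM. Differences outside the first comparison are given for the pairs of gene and comparison that were called or whose libraries did not overlap, with adjusted p alone for Mmp8 and Timp1 against hepatocytes. The alternatives were edgeR's quasi-likelihood test, DESeq2 1.42.0, other scalings, pseudocounts of 0.1 and 2 CPM, other filters, fewer groups, a replicate block and leaving out each library. The pseudocount understates fold changes of genes with few reads.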

Additional observations from a re-analysis of the deposited data

How the results depend on the processing

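Of 69 differences, the 48 of the 10 genes and the 21 of the other named genes, the alternatives gave 1178 values with the same direction and side of the threshold, 117 that lost a call, 46 that gained one and 17 that changed sign. Between b-gal+ and b-gal- cells 2 of the 10 genes were called, and 4 in a fit of these 2 groups alone, where Mmp12 and Mmp13 passed. Against hepatocytes the 8 calls of b-gal+ cells ranged from 3 to 8 with 1 library left out. Between the b-gal- and EpCAM-positive gates the 2 calls became 0 with edgeR, the deposited scaling, total reads without TMM, no filter or these 2 groups alone, 1 with DESeq2 size factors, a pseudocount of 0.1 or a pseudocount of 2, and 0 to 1 with 1 library left out. Of all genes 9.32% were called there with edgeR, and 0.0134% with limma without b-gal- library 1. With limma 0 genes were called with these 2 groups alone (3080 at an unadjusted p under 0.05), without b-gal- library 2 (2709) or without hepatocyte library 2 (4092). The Mmp8 difference between the F4/80high gates became -0.85 with edgeR, -0.74 with DESeq2, -0.12 under the deposited scaling, -0.11 on total reads and -0.17 with a pseudocount of 2, and ranged from -1.77 to 1.77 with 1 library left out. With 1 library left out, Mmp2 ranged from -1.08 to 0.20, Mmp9 from -1.33 to 1.08 and Timp1 from -2.48 to 0.73 in that comparison. Timp2 between the b-gal+ and EpCAM-positive gates became -0.10 on total reads. Mmp14 between b-gal+ cells and hepatocytes became 0.39 under the deposited scaling and 0.33 on total reads. The cause of these changes was not tested. With 1 library left out, the lone library of its group is assumed to vary like the other groups.

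The labels give all groups the replicate numbers 1 and 2 but not what a number shares, so whether they pair libraries is not known. Deviations of same-numbered libraries correlated at 0.18 to 0.49 across genes in the 6 pairs of groups, which is a hint from the data only. With the replicate number as a block, 2 of the 10 genes were called between the F4/80high gates, 4 between the b-gal+ and EpCAM-positive gates, 10 between b-gal+ cells and hepatocytes, 3 between the b-gal- and EpCAM-positive gates, 9 between b-gal- cells and hepatocytes and 7 between EpCAM-positive cells and hepatocytes. Of all genes 28.2%, 37.8%, 62.9%, 15.6%, 67.1% and 66.6% were called with the block in these comparisons. Among the calls gained were Mmp19 between the b-gal+ and EpCAM-positive gates (adjusted p = 0.0282) and Timp3 between the b-gal- and EpCAM-positive gates (0.0272). With 2 libraries a group, the 95% interval of Mmp12, Mmp8, Mmp9 or Timp1 between the F4/80high gates spans more than 4 log2 units. Each of these intervals includes 0, so the direction of these differences is not settled.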

Other observations

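Further MMPs differed between the groups. The 3 named next, Mmp15, Mmp7 and Mmp11, were chosen after their values were seen. Mmp15, the membrane-bound MT2-MMP, had 91.5 and 108 CPM in hepatocytes, 29.8 and 140 in the EpCAM-positive gate, 7.33 and 6.80 for b-gal- and 2.28 and 0.804 in the b-gal+ gate. Its difference of -5.71 between b-gal+ cells and hepatocytes had adjusted p = 0.000409 with limma. Mmp7, an epithelial matrilysin, had 21 and 98 reads in the EpCAM-positive gate, 0 and 12 in the b-gal- gate and 0 in both b-gal+ and both hepatocyte libraries. Mmp11, stromelysin-3, had 2.67 and 11.6 CPM in the EpCAM-positive gate and at most 1.00 CPM elsewhere. In the EpCAM-positive gate all 3 were higher in replicate 2. In that library cholangiocyte markers were at 7170 against 2153 CPM and hepatocyte markers at 5034 against 712 CPM. The summed levels of the other cell type marker lists were lower there than in replicate 1. The part of any cell type in these levels was not tested. Mmp27 had 59.6 and 50.0 CPM for b-gal+, 3.42 and 2.50 for b-gal-, 0.517 and 0.0374 in the EpCAM-positive gate and 0.738 and 0.160 in hepatocytes, so that both b-gal+ libraries stood above the other 6. Mmp1a and Mmp20 had 0 reads in all 8 libraries.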
